A study of Danio rerio with 15 samples.

Results

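The transition from 5 to 7 days after kidney injury was followed in whole kidneys of adult zebrafish, by setting the 3 samples collected at 7 days post injury (dpi) against the 3 collected at 5 dpi. These are 6 of the 15 samples of a time course of acute kidney injury (AKI), whose other groups are uninjured kidneys and kidneys at 1 and 3 dpi, with 3 samples each. All fish were AB-strain animals of 6 months; injured fish had received gentamicin, an antibiotic toxic to the proximal tubule, by injection into the body cavity, and those with protein in the urine on the first day were kept. Polyadenylated RNA of the kidney was sequenced. The deposited values are FPKM (fragments per kilobase of transcript, scaled to the mapped fragments of the library) for 5686 genes, which are part of the transcriptome; the 5685 genes with a value over 0 in 3 or more samples were tested, on the log2(FPKM + 1) scale. Differences are 7 dpi minus 5 dpi, so a positive one means a higher level at 7 dpi, and a value of 1 on this scale is close to 2-fold for well expressed genes and understates the change of genes near or below 1 FPKM.

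After gentamicin the zebrafish nephron first loses proximal tubule cells, then repairs the surviving epithelium, and in addition forms new nephrons from renal progenitor cells (RPCs) that cluster, proliferate and differentiate over the following days. Inflammation, with neutrophils and macrophages, comes with the injury and has to subside; interstitial cells lay down provisional matrix, of which fibronectin is a main component. The fish kidney is also the site of blood formation, so that erythroid and myeloid precursors contribute to its RNA. In such bulk samples, fewer cells of a type and less RNA per cell cannot be told apart.

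The 6 libraries held between 14226826 and 16367612 reads, as recovered from the steps of the FPKM values, and depth did not separate the times. Of 8 kidney tubule markers, 4 are in the table (slc22a2, lrp2a, cubn and slc5a1), and all 4 were above 0 in every sample. Genes of other organs were present as well. The summed FPKM of 35 ovary genes was 284, 206 and 359 at 7 dpi, against 1242, 14.3 and 12.4 at 5 dpi, so that 5 dpi replicate 1 stood apart from the other 5 dpi samples; the egg coat gene zp3b was at 46.3, 32.6 and 60.2 FPKM at 7 dpi, against 191, 0.758 and 0.742 FPKM at 5 dpi. Of the other defining ovary genes, gdf9, bmp15, ddx4 and dazl were at 0 in 1 to 3 of the 15 samples. The 24 exocrine pancreas genes summed to 46.6, 85.6 and 108 FPKM at 7 dpi, against 32.8, 25.4 and 19.3 FPKM at 5 dpi, and the 27 muscle genes to 133, 69.9 and 117 FPKM at 7 dpi, against 36.6, 29.6 and 42.0 FPKM at 5 dpi; in both lists the times did not overlap. The 20 liver genes gave 349, 272 and 267 FPKM at 7 dpi, against 360, 230 and 167 FPKM at 5 dpi, and these sums overlapped. A sum is weighted to high genes such as the liver marker fabp10a, at 154 FPKM in 5 dpi replicate 1. Gene by gene, 8 of the 20 were entirely higher at 7 dpi and 2 entirely lower (40.0% and 10.0%, against 7.12% and 21.7% of all genes). The median difference of the liver list was 0.76, against -0.10 for all genes. In all 4 lists the 7 dpi samples overlapped the uninjured range. The part of these tissues in the results below was not tested, and they are named beside each result whose genes they hold.

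**Figure D1:**
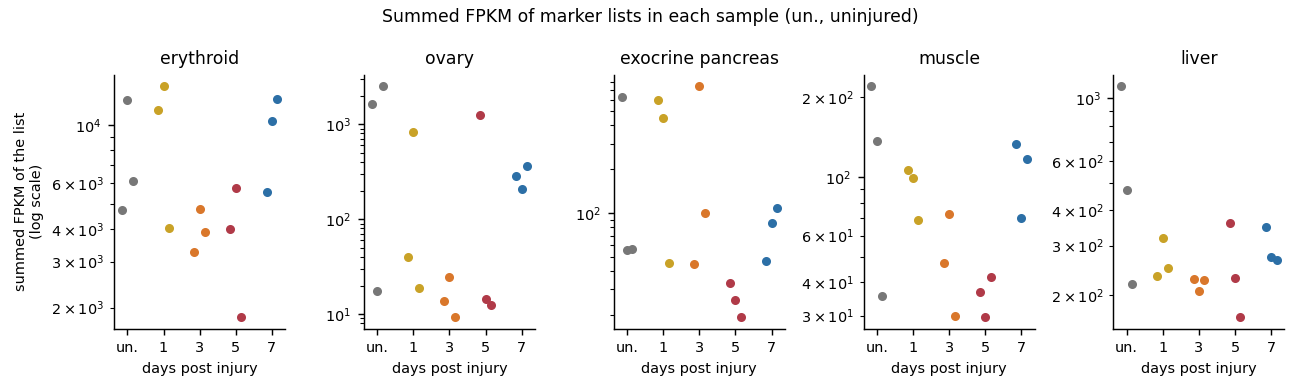
Summed FPKM (log scale) of the erythroid, ovary, exocrine pancreas, muscle and liver lists in each of the 15 samples, by group; each point is 1 sample. Ovary genes in 5 dpi replicate 1 summed to 1242 FPKM, against 14.3 and 12.4 FPKM in the other 5 dpi samples, while pancreas and muscle genes were higher in all 3 samples at 7 dpi than in any at 5 dpi.

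In the fit of the 6 samples alone (limma), no gene passed an adjusted p of 0.05 in either direction (0% of the 5685 genes tested, higher or lower); the smallest adjusted p was 0.0593, and limma-voom on recovered reads also called 0 genes. At an unadjusted p below 0.05 there were 301 genes higher at 7 dpi (5.29%) and 976 lower (17.2%), so that 23.6% of these were higher. That split belongs to the FPKM scale: with median-of-ratios scaling 48.6% of such genes were higher, with quantile normalization 41.4%, and with a trend on gene length removed 51.9%. The median difference over all genes was -0.10 on FPKM, 0.01 with median-of-ratios scaling, -0.04 after quantile normalization and 0.03 with the length trend removed. The 3 samples at 7 dpi lay entirely above the 3 at 5 dpi in 405 genes (7.12%) and entirely below them in 1231 (21.7%). Under FPKM, median-of-ratios scaling and removal of the length trend alike, 364 genes stayed above (6.4%) and 631 below (11.1%). These last counts are used as the background for the gene lists.

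When all 15 samples shared 1 estimate of the spread, 47 genes passed: 2 rose at 7 dpi (0.0352%) and 45 fell (0.792%). In this fit the adjusted p of the 47 ran between 0.000167 and 0.0499, and in the 6-sample fit between 0.0593 and 0.109. All 47 were separated between the times under all 3 scalings, which follows in large part from their call on the same samples. With the length trend removed, 4 of the 47 passed in the 15-sample fit. Without 5 dpi replicate 1, the sample with high ovary RNA, 453 genes passed, of which 244 were higher (4.29%) and 209 lower (3.68%); 38 of the 47 were among them, 37 of these lower. Of the 244, 22 were on the ovary list and 41 on one of the 4 other-tissue lists, against 0 of the 209. In 202 of the 209, the omitted sample was itself above every 7 dpi sample, while in 199 of the 244 it was at or above the lowest 7 dpi sample. Genes called only without it are therefore given as values and are counted beside some of the lists, and "rose" and "fell" are used for the 15-sample fit alone. Among all genes tested, 60.9% had a lower mean at 7 dpi.

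The 45 genes that fell had mostly been raised at 5 dpi: in 36 of them all 3 samples at 5 dpi were above all uninjured samples. At 7 dpi, 2 were still entirely above the uninjured range, 25 overlapped it and 18 were entirely below it. Among all 5685 genes tested, 1222 were entirely above the uninjured range at 5 dpi and 861 at 7 dpi. At 7 dpi 3267 of all genes overlapped that range and 1557 were entirely below it, against 928 below it at 5 dpi. The median of the 45 relative to the uninjured mean was -0.13 at 7 dpi and 1.01 at 5 dpi on the log2(FPKM + 1) scale. By distance between means, 30 of the 45 (66.7%) were nearer to the uninjured level at 7 dpi than at 5 dpi, against 40.7% of all genes with a lower mean at 7 dpi. Since a gene enters this group the more easily the higher its 5 dpi values are, these positions are a description. Positions against the uninjured samples, here and below, are on FPKM alone. On that scale the median of all genes relative to the uninjured mean was -0.23, -0.25 and -0.19 at 7 dpi. At 5 dpi it was 0.02, -0.09 and -0.09.

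**Figure D2:**
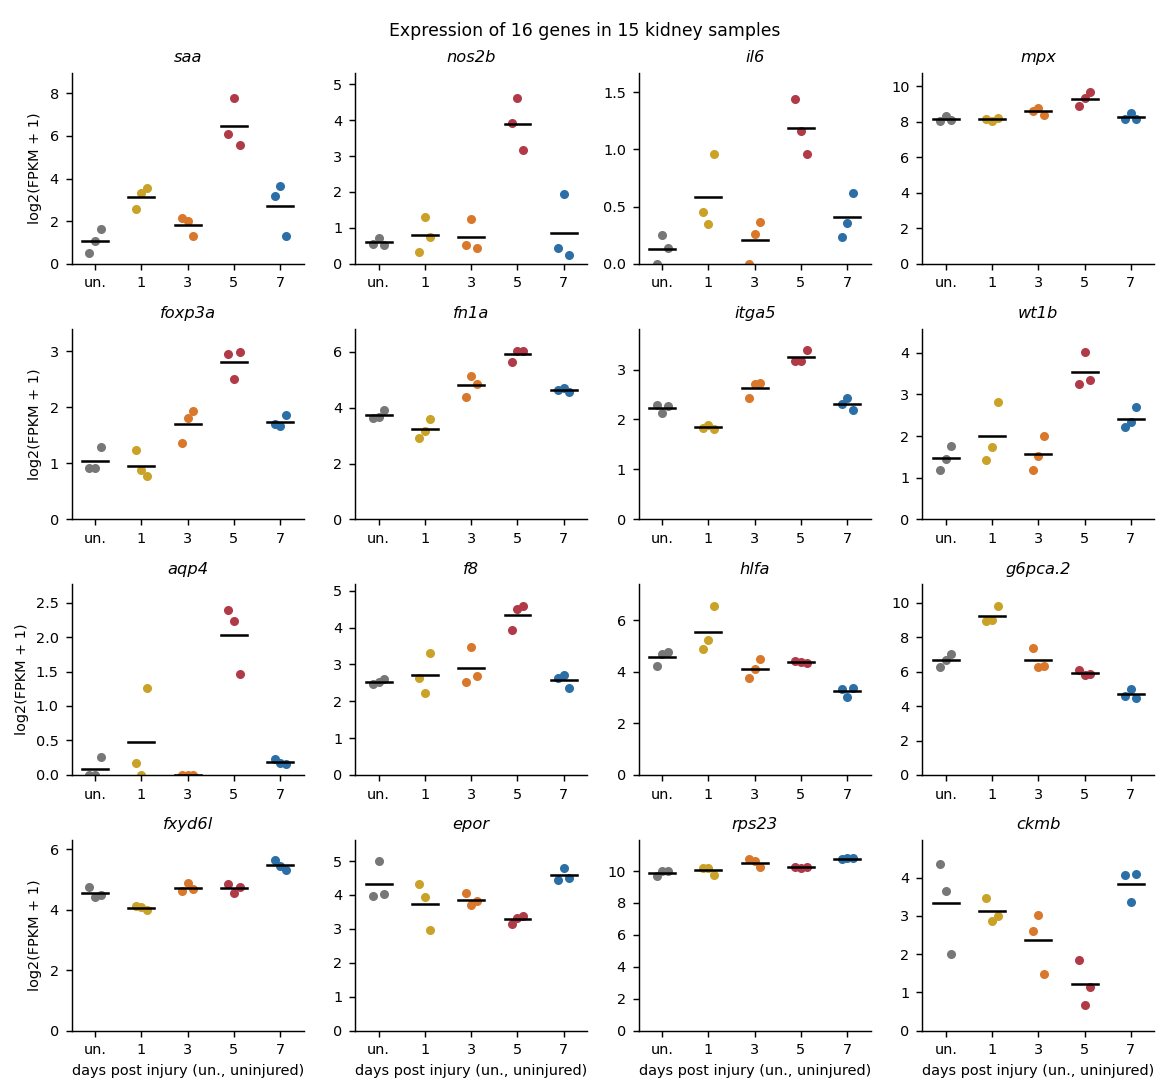
Expression of 16 genes as log2(FPKM + 1) in every sample, over uninjured kidneys (un.) and 1, 3, 5 and 7 dpi; points are samples and bars are group means. The upper rows hold genes with a maximum at 5 dpi such as saa, nos2b, fn1a and itga5; hlfa and g6pca.2 were below their uninjured level at 7 dpi, and fxyd6l, epor, rps23 and ckmb were higher at 7 dpi than at 5 dpi.

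The 2 largest falls among the 45 were those of inflammatory genes. Serum amyloid A (saa, ENSDARG00000045999, chromosome 7: 12688763 to 12703714, GRCz11), the main acute phase protein, was at 8.16, 11.7 and 1.49 FPKM at 7 dpi, against 67.0, 216 and 46.6 FPKM at 5 dpi. Its uninjured levels were 0.407, 1.12 and 2.09 FPKM, so that 2 of the 7 dpi samples lay above them and 1 among them, and all 3 below those at 5 dpi. The difference was -3.75 ± 0.79 (SE, limma; adjusted p 0.0934 in the 6-sample fit and 0.0234 in the 15-sample fit, 0.023 to 0.25 over all alternatives). Inducible nitric oxide synthase (nos2b, ENSDARG00000031976, chromosome 15: 30442750 to 30468128) was at 0.343, 2.81 and 0.189 FPKM at 7 dpi, against 14.2, 23.4 and 8.04 FPKM at 5 dpi. In uninjured kidneys nos2b had 0.478, 0.640 and 0.447 FPKM, inside the range of the 7 dpi samples. It fell by 3.04 ± 0.56 (SE; adjusted p 0.0902 in the 6-sample limma fit, 0.0168 in the 15-sample fit, 0.002 to 0.25 over all alternatives), and was 1 of 4 genes that also passed in the 15-sample fit with the length trend removed. Myeloperoxidase (mpx, ENSDARG00000019521), the granule enzyme of neutrophils and the only one of 4 neutrophil markers in the table, had 288, 366 and 289 FPKM at 7 dpi, against 481, 649 and 821 FPKM at 5 dpi. Uninjured kidneys had 259, 326 and 279 FPKM of mpx, so the 7 dpi samples overlapped them and the 5 dpi samples did not. mpx fell by 1.02 ± 0.25.

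Of the 68 genes of inflammation and the acute phase that were tested, 3 fell (saa, nos2b and mpx) and none rose, against 0.792% and 0.0352% of all genes. Under all 3 scalings 12 were separated and lower and 1 higher (17.6% and 1.47%, against 11.1% and 6.4% of all genes). The median difference of the list was -0.26 (-0.10 with median-of-ratios scaling, -0.24 with the length trend removed), against -0.10 for all genes. Among the cytokine genes of the list, il6, tnfa and il11a had lower values without passing in the 6- or 15-sample fit, and il11a passed without 5 dpi replicate 1 (adjusted p 0.04, limma). il6 was at 0.179, 0.283 and 0.536 FPKM at 7 dpi, against 1.72, 1.23 and 0.942 FPKM at 5 dpi. tnfa, the tumour necrosis factor gene, was at 0.593, 1.69 and 1.31 FPKM at 7 dpi, against 4.29, 6.70 and 2.88 FPKM at 5 dpi. Levels of il11a, an IL-6 family cytokine, were 1.12, 0.768 and 0.559 FPKM at 7 dpi and 1.83, 2.47 and 3.77 FPKM at 5 dpi. In all 3 the times did not overlap, and il11a had stayed above its uninjured range (0 to 0.253 FPKM) at both. The chemokine cxcl19 was at 6.60, 19.0 and 10.9 FPKM at 7 dpi, against 32.1, 35.6 and 24.3 FPKM at 5 dpi; it was lower at 7 dpi, yet uninjured kidneys had at most 1.31 FPKM. Lower values were also found for nfkb1 (adjusted p 0.03 in the limma fit without 5 dpi replicate 1) and tnfaip3. The first, which encodes an NF-kB subunit, had 7.61, 8.07 and 7.77 FPKM at 7 dpi and 13.1, 17.7 and 25.7 FPKM at 5 dpi. The negative regulator tnfaip3 had 2.80, 5.35 and 3.84 FPKM at 7 dpi and 7.79, 11.5 and 9.49 FPKM at 5 dpi. For nfkb1 the 7 dpi samples were below the lowest uninjured sample (10.1 FPKM), while those of tnfaip3 overlapped the uninjured range. The receptor-interacting kinase ripk2, which works in NOD signalling, followed the same order, with 3.19, 3.17 and 2.95 FPKM at 7 dpi and 7.34, 7.34 and 6.90 FPKM at 5 dpi. Its 5 dpi samples overlapped the uninjured range of 3.72 to 7.28 FPKM, and its 7 dpi samples were below it. Against this direction, haptoglobin (hp), which binds free haemoglobin, was at 234, 193 and 199 FPKM at 7 dpi, against 151, 100 and 148 FPKM at 5 dpi, and at 72.6 to 87.8 FPKM in uninjured kidneys, so that its 7 dpi samples were the highest of the 3 groups.

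In the list of prostaglandin and eicosanoid genes, no member passed in the 6- or 15-sample fit or without 5 dpi replicate 1. The leukotriene-forming lipoxygenase alox5b.2 was at 0.843, 2.76 and 1.87 FPKM at 7 dpi, against 29.7, 6.48 and 53.8 FPKM at 5 dpi, and uninjured kidneys had 0.520, 1.21 and 1.73 FPKM. The difference of -3.10 ± 0.74 was close to that of nos2b, with an adjusted p of 0.0975 in the 6-sample limma fit, and it did not pass in the 15-sample fit. PTGDR2, which encodes a receptor for prostaglandin D2 and is not on this list, fell by 1.07 ± 0.20. It had 0.462, 0.975 and 0.462 FPKM at 7 dpi and 2.09, 2.16 and 3.04 FPKM at 5 dpi. ptgs2a, the cyclooxygenase gene cox2a that makes the precursor of prostaglandin E2, was at 0.943, 0.941 and 0.865 FPKM at 7 dpi and 0.889, 1.65 and 1.13 FPKM at 5 dpi; these overlapped, and both times were above the 0.148 to 0.364 FPKM of uninjured kidneys. Of the 19 prostaglandin and eicosanoid genes tested, 3 were separated and higher under all scalings and 1 lower (15.8% and 5.26%, against 6.4% and 11.1% of all genes), and the median difference was -0.08. The higher ones were cbr1l, ptgdsb.2 and pla2g1b. cbr1l, of the carbonyl reductase family, was at 63.3, 68.6 and 57.6 FPKM at 7 dpi, against 27.5, 54.04 and 31.1 FPKM at 5 dpi. The prostaglandin D synthase gene ptgdsb.2 had 1.38, 0.797 and 0.710 FPKM at 7 dpi and 0.502, 0.436 and 0.187 FPKM at 5 dpi. The related ptgdsb.1, separated on FPKM but not under all scalings, had 10.5, 6.44 and 2.72 FPKM at 7 dpi and 2.12, 0.475 and 2.61 FPKM at 5 dpi. pla2g1b, a phospholipase that the pancreas secretes, was at 0.325, 0.187 and 0.0296 FPKM at 7 dpi and at 0 in all 3 samples at 5 dpi.

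Interferon-stimulated genes had the lowest median of the 26 lists, -0.50 over 42 genes (-0.32 with median-of-ratios scaling, -0.38 with the length trend removed). Of the 42, 37 had a lower mean at 7 dpi. On FPKM 18 were separated and lower and none higher (42.9% and 0%, against 21.7% and 7.12% of all genes). Under all scalings 7 were lower, a share of 16.7% against 11.1% of all genes. None passed in the 6- or 15-sample fit. Without 5 dpi replicate 1, the sample with high ovary RNA, tdrd7a passed as higher and irf1b as lower, against 4.29% and 3.68% of all genes. The part of ovary RNA in the call of tdrd7a was not tested. Leaving out 1 sample at a time moved the median between -0.58 and -0.29. The antiviral GTPase gene mxe was at 3.57, 3.24 and 4.89 FPKM at 7 dpi, against 9.31, 7.75 and 10.2 FPKM at 5 dpi. stat1b, the transcription factor behind the response, had 15.2, 30.1 and 25.9 FPKM at 7 dpi and 42.0, 43.0 and 47.9 FPKM at 5 dpi, with 20.7, 23.9 and 29.0 FPKM in uninjured kidneys; 7 dpi overlapped the uninjured samples and 5 dpi did not. rsad2, which encodes viperin, an antiviral enzyme, was at 4.94, 11.7 and 12.3 FPKM at 7 dpi, against 26.4, 16.9 and 18.9 FPKM at 5 dpi. crfb17, a cytokine receptor family member, had 5.34, 3.23 and 3.13 FPKM at 7 dpi and 6.76, 8.36 and 8.72 FPKM at 5 dpi. Seen over the time course, the median of the list relative to the uninjured mean lay between 0.55 and 1.32 at 3 dpi. The range was 0.45 to 0.63 at 5 dpi, and -0.06 to 0.41 at 7 dpi.

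Among genes of immune cells, foxp3a, the transcription factor of regulatory T cells, fell by 1.07 ± 0.20: it was at 2.26, 2.17 and 2.65 FPKM at 7 dpi, against 6.74, 4.66 and 6.91 FPKM at 5 dpi. Uninjured samples had 0.889, 0.891 and 1.46 FPKM, so foxp3a was 1 of the 2 genes of the 45 that stayed entirely above them at 7 dpi. The other was fn1a. cd4-1, the only one of 4 T cell markers in the table, was at 4.72, 5.26 and 4.57 FPKM at 7 dpi and 4.94, 3.97 and 4.82 FPKM at 5 dpi, which overlapped. Macrophage markers overlapped too: mpeg1.1 had 98.9, 157 and 65.2 FPKM at 7 dpi and 77.7, 95.7 and 130 FPKM at 5 dpi, and marco 594, 372 and 168 FPKM at 7 dpi and 273, 286 and 360 FPKM at 5 dpi. The 7 dpi samples were the more spread in both. Higher values that did not pass in the 6- or 15-sample fit or without 5 dpi replicate 1 were found for prf1.7 and nkl.2. The perforin gene prf1.7 had 5.65, 5.39 and 4.0 FPKM at 7 dpi and 1.87, 2.33 and 3.36 FPKM at 5 dpi. The NK-lysin gene nkl.2 had 5.16, 5.12 and 2.82 FPKM at 7 dpi and 2.00, 2.05 and 2.31 FPKM at 5 dpi. havcr2 (TIM-3), an inhibitory receptor, was at 4.64, 4.11 and 3.75 FPKM at 7 dpi, against 1.91, 2.17 and 1.82 FPKM at 5 dpi, which was within the uninjured range of 1.95 to 2.97 FPKM or just under it. Over the 56 leukocyte genes the median difference was 0.03. Under all scalings 5 were separated and higher and 3 lower (8.93% and 5.36%, against 6.4% and 11.1% of all genes). Of this list foxp3a and mpx fell and none rose, against 0.792% and 0.0352% of all genes.

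Fibronectin and its receptor fell together. fn1a (ENSDARG00000019815, chromosome 9: 15391097 to 15453436), the provisional matrix protein, was at 24.1, 25 and 22.8 FPKM at 7 dpi, against 49.2, 65.1 and 65.3 FPKM at 5 dpi, and at 11.4, 11.8 and 14.0 FPKM in uninjured kidneys. It fell by 1.27 ± 0.17 (SE, with adjusted p 0.0902 in the 6-sample limma fit, 0.0234 in the 15-sample fit, 0.013 to 0.25 over all alternatives). fn1a is long, at 9001 bases. With the length trend removed its difference was -0.92, and it did not pass in the 15-sample limma fit (adjusted p 0.094). itga5 (ENSDARG00000006353), the alpha chain of the fibronectin-binding integrin, was at 3.98, 4.41 and 3.56 FPKM at 7 dpi, against 8.06, 7.97 and 9.48 FPKM at 5 dpi, and fell by 0.93 ± 0.17. Uninjured kidneys had 3.91, 3.40 and 3.83 FPKM of itga5, so its 7 dpi samples overlapped the uninjured range where those of fn1a did not. paplna, a papilin of the basement membrane, fell by 1.14 ± 0.23, with 0.544, 0.838 and 0.294 FPKM at 7 dpi and 1.61, 3.09 and 2.68 FPKM at 5 dpi.

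Of the 93 interstitial and matrix genes tested, fn1a alone fell and none rose, against 0.792% and 0.0352% of all genes. Without 5 dpi replicate 1, 7 passed as lower (3.68% of all genes did), among them fn1a, col1a2, mmp11a, adamts15a and adamts1. Under all scalings 9 were separated and lower and 7 higher (9.68% and 7.53%, against 11.1% and 6.4% of all genes). The median was -0.26 on FPKM and -0.01 with the length trend removed, and the median length of the list was 3882 bases, against 2306 for all genes. Matrix proteases were among the lower members. mmp11a, a stromelysin, was at 8.99, 10.6 and 11.9 FPKM at 7 dpi, against 21.1, 24.7 and 26.1 FPKM at 5 dpi, with 1.61 to 3.11 FPKM in uninjured kidneys. adamts15a had 5.36, 4.27 and 5.71 FPKM at 7 dpi and 12.2, 10.9 and 11.1 FPKM at 5 dpi, and adamts1 had 1.25, 1.09 and 1.63 FPKM at 7 dpi and 2.82, 3.72 and 4.40 FPKM at 5 dpi. All 3 were separated between the times, and mmp11a remained above uninjured in every 7 dpi sample. The collagen I genes, markers of the renal interstitial cells (RICs) of the study, had spread samples: col1a1b was at 13.4, 6.55 and 15.1 FPKM at 7 dpi, against 17.6, 32.2 and 34.4 FPKM at 5 dpi, and col1a2 at 16.2, 9.93 and 17.8 FPKM at 7 dpi, against 20.3, 36.2 and 39.0 FPKM at 5 dpi. For both the lowest 5 dpi sample, replicate 1, was close to the highest 7 dpi sample, and neither stayed separated under all scalings. The other RIC markers overlapped: dcn (decorin) had 33, 23.8 and 30.6 FPKM at 7 dpi and 31.4, 33.6 and 34.3 FPKM at 5 dpi, with a sign that turned under median-of-ratios scaling (0.02), and emilin1a 29.3, 23.4 and 20.3 FPKM at 7 dpi and 16.9, 17.4 and 24.9 FPKM at 5 dpi. fabp10a, the gene whose promoter marks RICs in the study and which is also a liver gene, was at 144, 72.2 and 55.5 FPKM at 7 dpi and 154, 19.7 and 32.6 FPKM at 5 dpi. hapln1a, a link protein of hyaluronan matrix, ran the other way, with 4.75, 3.13 and 3.74 FPKM at 7 dpi and 1.73, 1.69 and 2.48 FPKM at 5 dpi.

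Renal development genes went both ways. None passed in the 6- or 15-sample fit, and sox9a passed as lower without 5 dpi replicate 1 (adjusted p 0.036, limma). Of 41 genes, 4 were separated and lower and 4 higher under all scalings (9.76% each, against 11.1% and 6.4% of all genes). The median was -0.13 on FPKM and 0.07 with the length trend removed. wt1b, which marks podocytes and their precursors and RPC condensates, was at 3.63, 4.04 and 5.44 FPKM at 7 dpi, against 8.44, 15.2 and 9.22 FPKM at 5 dpi; uninjured kidneys had 1.27, 1.71 and 2.40 FPKM, so wt1b was above them at both times. sox9a, whose mammalian relative marks regenerating tubule cells, had 2.39, 2.45 and 3.25 FPKM at 7 dpi and 5.16, 6.73 and 7.47 FPKM at 5 dpi, and overlapped its uninjured range of 1.69 to 3.37 FPKM at 7 dpi. osr2, a regulator of early kidney formation, was higher, with 17.6, 17.9 and 13 FPKM at 7 dpi and 9.41, 11.2 and 9.27 FPKM at 5 dpi. mycn, a growth regulator, was at 3.02, 1.87 and 1.47 FPKM at 7 dpi and 1.16, 0.982 and 1.08 FPKM at 5 dpi. The RPC gene lhx1a overlapped, with 2.19, 2.98 and 5.20 FPKM at 7 dpi and 3.42, 3.07 and 6.17 FPKM at 5 dpi, all above the uninjured 1.06 to 1.67 FPKM. wnt4a, a Wnt ligand of tubule formation, had 1.83, 1.38 and 1.64 FPKM at 7 dpi and 0.972, 0.818 and 1.29 FPKM at 5 dpi, after 0.289 to 0.620 FPKM in uninjured kidneys; the times were separated under all scalings, with a difference of 0.37 ± 0.16 and an adjusted p of 0.23 (limma, 6 samples). lef1, a transcription factor of Wnt signalling, gave 0.812, 0.835 and 1.05 FPKM at 7 dpi and 1.81, 0.630 and 0.766 FPKM at 5 dpi, and its sign depended on 5 dpi replicate 1, being 0.16 without it and -0.08 with it.

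No cell cycle gene passed in the 6- or 15-sample fit, and without 5 dpi replicate 1, the sample with high ovary RNA, 4 passed as higher (ccnb2, birc5b, gmnn and nek2). In that fit 4.29% of all genes passed as higher. Of 57, 2 were separated and higher under all scalings (cdk1 and knstrn) and none lower. These shares were 3.51% and 0%, against 6.4% and 11.1% of all genes. The median was 0.11 (0.32 with median-of-ratios scaling). cdk1, the mitotic kinase, was at 64.2, 87.3 and 71.7 FPKM at 7 dpi, against 56.6, 55.5 and 57.2 FPKM at 5 dpi. For knstrn, a spindle protein, the values were 17.3, 25.9 and 22.7 FPKM at 7 dpi and 10.6, 14.6 and 13.1 FPKM at 5 dpi. Genes of motile cilia, which multiciliated tubule cells carry in the fish, were higher in 7 of 37 under all scalings and lower in 1. These shares were 18.9% and 2.7%, against 6.4% and 11.1% of all genes, and the median was 0.20. A pass as higher without 5 dpi replicate 1 was found for 1 of the 37 cilium genes, where 4.29% of all genes passed. lrrc51 had 8.31, 7.52 and 7.96 FPKM at 7 dpi, against 4.94, 5.23 and 5.11 FPKM at 5 dpi, and 3.06 to 3.66 FPKM in uninjured kidneys. iqcg, an axonemal gene, was at 8.47, 5.56 and 6.74 FPKM at 7 dpi, against 4.06, 3.78 and 3.72 FPKM at 5 dpi. The long dynein gene dnah5 was at 1.13, 0.964 and 0.962 FPKM at 7 dpi and 1.47, 1.70 and 1.74 FPKM at 5 dpi, but its difference of -0.38 was -0.01 with the length trend removed.

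Of the 104 proximal tubule genes tested, none passed in the 6- or 15-sample fit. Without 5 dpi replicate 1, g6pca.2 and slc20a1b passed as lower, where 3.68% of all genes did. Under the scalings 8 were separated and lower and 2 higher under all scalings (7.69% and 1.92%, against 11.1% and 6.4% of all genes), and 78 had a lower mean at 7 dpi (75.0%, against 60.9% of all genes). The median was -0.27 on FPKM, -0.08 with median-of-ratios scaling and -0.14 with the length trend removed. On FPKM it depended on single samples: it was -0.07 without 5 dpi replicate 1 and -0.63 without 5 dpi replicate 3, the sample with the low values in the genes that follow. The organic cation transporter slc22a2 was at 140, 106 and 135 FPKM at 7 dpi and 327, 277 and 71.1 FPKM at 5 dpi, which overlapped. cubn and lrp2a, the endocytic receptors that take up filtered protein, had the same pattern: cubn was at 12.9, 13.2 and 16.7 FPKM at 7 dpi and 35.7, 31.6 and 15.3 FPKM at 5 dpi, and lrp2a at 4.23, 7.36 and 6.05 FPKM at 7 dpi and 14.5, 13.2 and 6.66 FPKM at 5 dpi. Both remained far below the uninjured kidneys, which had 59.18 to 87.4 FPKM of cubn and 38.8 to 53.5 FPKM of lrp2a. g6pca.2, glucose-6-phosphatase, the last enzyme of gluconeogenesis, was at 22.8, 31.5 and 21.1 FPKM at 7 dpi, against 68.6, 56.0 and 58.0 FPKM at 5 dpi and 76.3 to 131 FPKM in uninjured kidneys, a difference of -1.26 ± 0.20 away from the uninjured level (adjusted p 0.041 in the limma fit without 5 dpi replicate 1; it did not pass in the 6- or 15-sample fit). slc3a1, of the cystine transporter, had 22.7, 17.6 and 22.0 FPKM at 7 dpi and 67.3, 58.9 and 29.7 FPKM at 5 dpi. In contrast slc25a48, a mitochondrial carrier, was higher, at 14.2, 8.79 and 12.8 FPKM at 7 dpi and 7.72, 6.15 and 5.31 FPKM at 5 dpi.

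In the distal nephron list 1 gene rose, where 0.0352% of all genes did. fxyd6l (ENSDARG00000097057, chromosome 16: 24686108 to 24727834), of the FXYD family of Na+/K+-ATPase regulators, was at 49.4, 42.9 and 39.3 FPKM at 7 dpi, against 28.3, 22.5 and 25.9 FPKM at 5 dpi. The uninjured samples had 26.1, 20.6 and 21.6 FPKM, so that the level was above both. Its difference was 0.76 ± 0.17 (SE; adjusted p 0.0934 in the 6-sample limma fit, 0.042 in the 15-sample fit, 0.042 to 0.25 over all alternatives). Of the 27 members tested, 2 were separated and higher and 2 lower under all scalings (7.41% each, against 6.4% and 11.1% of all genes), and the median was -0.10 on FPKM and 0.04 with median-of-ratios scaling. Lower values without a pass were found for kcnj16 and irx1a. The potassium channel gene kcnj16 had 20.4, 21.2 and 28.1 FPKM at 7 dpi and 51.9, 53.3 and 35.9 FPKM at 5 dpi. The segment regulator irx1a had 9.99, 9.52 and 10.3 FPKM at 7 dpi and 19.8, 17.4 and 11.5 FPKM at 5 dpi. Both had uninjured levels (38.9 to 56.7 and 20.2 to 34.8 FPKM) well above those at 7 dpi.

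Among the genes that fell were ppargc1a and esrra. ppargc1a (PGC-1 alpha), the coactivator of mitochondrial biogenesis, was at 4.21, 2.74 and 2.55 FPKM at 7 dpi, against 8.26, 9.27 and 12.4 FPKM at 5 dpi, and fell by 1.4 ± 0.24. esrra, the nuclear receptor with which PGC-1 alpha works in mammals, was at 8.27, 8.0 and 6.81 FPKM at 7 dpi, against 18.2, 18.5 and 21.1 FPKM at 5 dpi, and fell by 1.22 ± 0.16. Uninjured kidneys had 4.40 to 7.71 FPKM of ppargc1a and 5.42 to 12.6 FPKM of esrra. On FPKM the 7 dpi samples of ppargc1a were therefore all below the uninjured range, and those of esrra inside it. The position of ppargc1a depended on the scale. Median-of-ratios scaling divides 7 dpi replicate 1 by 0.8875 and uninjured replicate 3 by 1.032, which puts the first above the second. pparaa, a receptor for fatty acids, had lower values that passed without 5 dpi replicate 1 (adjusted p 0.03, limma) but not in the 6- or 15-sample fit, with 2.90, 3.20 and 3.43 FPKM at 7 dpi and 8.52, 8.56 and 7.82 FPKM at 5 dpi. The same held for srebf1 (adjusted p 0.035 without 5 dpi replicate 1), which drives fatty acid synthesis, with 2.83, 3.32 and 2.97 FPKM at 7 dpi and 6.67, 7.62 and 7.03 FPKM at 5 dpi. FNIP2, a partner of folliculin in nutrient sensing, fell by 1.36 ± 0.20, with 3.53, 4.33 and 2.81 FPKM at 7 dpi and 9.30, 11.5 and 11.2 FPKM at 5 dpi. mitfb, of the MiTF family of transcription factors, fell by 1.67 ± 0.27, with 1.60, 3.21 and 1.48 FPKM at 7 dpi and 6.96, 8.96 and 9.99 FPKM at 5 dpi. Of the 14 genes of mitochondrial respiration, 10 had a lower mean at 7 dpi (71.4%, against 60.9% of all genes), and 1 was separated and lower and 1 higher under all scalings (7.14% each, against 11.1% and 6.4%). cox6b2, a subunit of cytochrome oxidase, had 265, 231 and 253 FPKM at 7 dpi, against 184, 157 and 176 FPKM at 5 dpi and 134 to 146 FPKM in uninjured kidneys, and ppargc1a was the member that passed.

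No member of the stress and clock lists passed in the 6- or 15-sample fit. Without 5 dpi replicate 1, 6 chaperone genes, 4 clock genes (hlfa, tefb, dbpa and bhlhe40) and 1 stress regulator (nr4a3) passed as lower and none as higher. In that fit 3.68% of all genes passed as lower and 4.29% as higher. Among 39 genes of chaperones, proteasome and unfolded protein response, 10 were separated and lower and 2 higher under all scalings (25.6% and 5.13%, against 11.1% and 6.4%). Their median was -0.40 on FPKM, -0.20 with median-of-ratios scaling and -0.30 with the length trend removed. hsp70l, a heat-inducible chaperone, was at 1.97, 0.685 and 1.13 FPKM at 7 dpi, against 3.63, 14.5 and 5.44 FPKM at 5 dpi, and hsp90aa1.2 at 6.32, 5.80 and 6.36 FPKM at 7 dpi, against 11.1, 29.5 and 15.2 FPKM at 5 dpi. In both, 5 dpi replicate 2 was the highest sample. ddit3 (CHOP), the endoplasmic reticulum stress factor, had 15, 13.5 and 15.3 FPKM at 7 dpi and 23.9, 28.4 and 21.0 FPKM at 5 dpi, with 14.8 to 16.4 FPKM in uninjured kidneys. fkbp5, a glucocorticoid-induced co-chaperone, was at 66.7, 81.6 and 59.4 FPKM at 7 dpi, against 197, 105 and 212 FPKM at 5 dpi. Outside these lists klf13, a Krüppel-like factor, fell by 1.71 ± 0.28, with 4.07, 3.63 and 3.34 FPKM at 7 dpi and 15.2, 9.49 and 20.03 FPKM at 5 dpi, and was below its uninjured range of 5.94 to 9.35 FPKM. Stress transcription factors went both ways. atf3 was at 13.6, 10.9 and 20.005 FPKM at 7 dpi, against 28.3, 34.5 and 26.8 FPKM at 5 dpi, and stayed above the uninjured 5.18 to 8.39 FPKM. jund, of the AP-1 family, had 3.40, 2.28 and 2.48 FPKM at 7 dpi and 5.38, 5.84 and 7.69 FPKM at 5 dpi. klf11a was higher, with 20.8, 24.5 and 23.7 FPKM at 7 dpi and 12.5, 13.1 and 14.9 FPKM at 5 dpi. In the list of 76 immediate early and stress regulators, 8 were lower and 3 higher under all scalings, shares of 10.5% and 3.95% that were no larger than those of all genes.

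Of 34 circadian clock genes, 10 were separated and lower and 3 higher under all scalings (29.4% and 8.82%, against 11.1% and 6.4% of all genes). The median was -0.38 on FPKM and -0.17 with the length trend removed. The light-dark cycle of the fish is given in the study's methods and the hour of collection was not found there. The hour and the day after injury therefore cannot be told apart, for these genes or for the others compared here. The PAR bZIP factors, outputs of the clock, were lower: hlfa was at 9.20, 7.22 and 9.43 FPKM at 7 dpi, against 20.3, 19.6 and 19.3 FPKM at 5 dpi, tefb at 10.0, 8.90 and 10.7 FPKM at 7 dpi, against 24.4, 17.6 and 22.8 FPKM at 5 dpi, and dbpa at 0.685, 0.307 and 0.561 FPKM at 7 dpi, against 1.57, 1.53 and 1.45 FPKM at 5 dpi. nfil3-2, of the family that represses the same sites, was higher, with 18.0, 31.4 and 26.9 FPKM at 7 dpi and 12.8, 10.8 and 9.76 FPKM at 5 dpi. bhlhe40, a repressor in the clock loop, had 26.4, 30.5 and 41.5 FPKM at 7 dpi and 75.3, 83.0 and 82.3 FPKM at 5 dpi, below its uninjured 52.8 to 69.0 FPKM at 7 dpi. The core repressor per1b was at 1.12, 0.872 and 2.18 FPKM at 7 dpi and 3.40, 3.03 and 3.54 FPKM at 5 dpi, while per2 overlapped (4.85, 4.44 and 6.58 FPKM at 7 dpi, 5.39, 6.29 and 6.77 FPKM at 5 dpi).

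**Figure D3:**
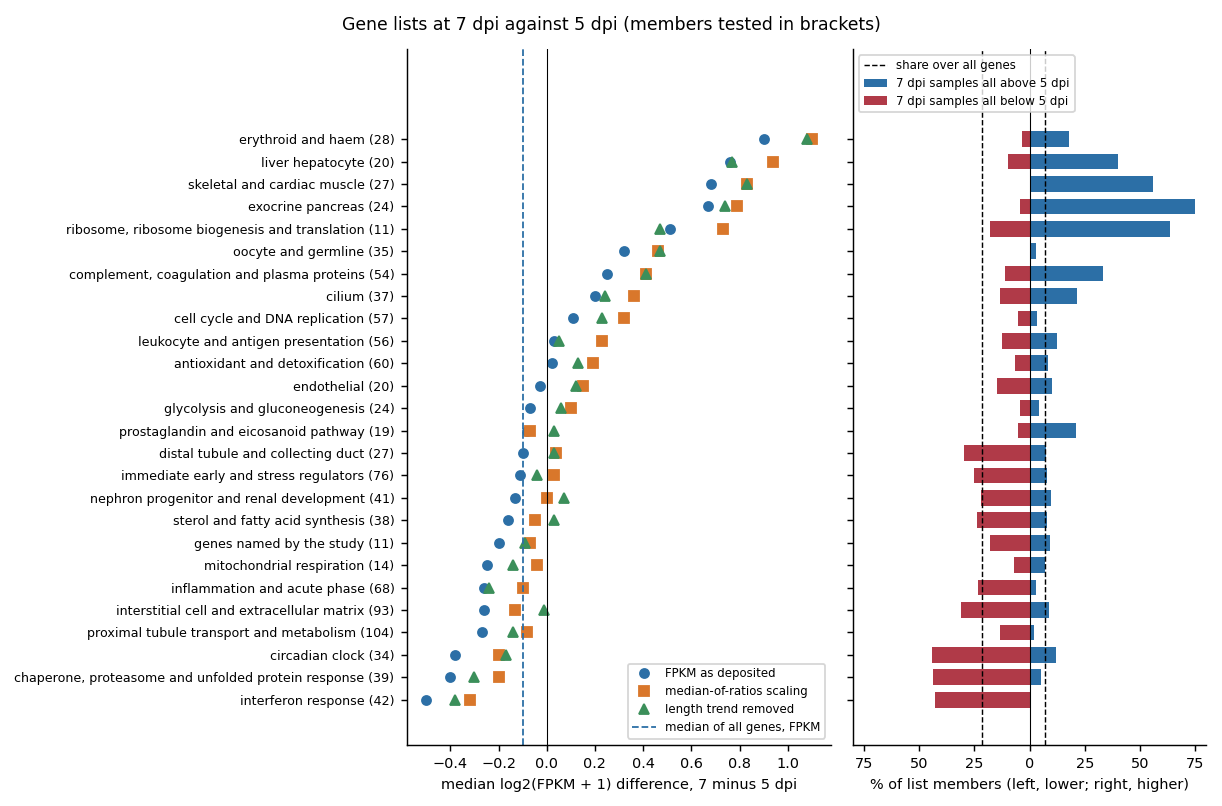
Left, median difference on the log2(FPKM + 1) scale (7 minus 5 dpi) of each of 26 gene lists, on FPKM, on median-of-ratios scaled values and on values without the length trend; right, share of list members whose 3 samples at 7 dpi were all below (left of 0) or all above (right of 0) those at 5 dpi, on FPKM. Interferon, chaperone and clock lists lay lowest at -0.50, -0.40 and -0.38, and the erythroid list highest at 0.90.

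Erythroid genes had the highest median of the lists, 0.90 over 28 genes (1.1 with median-of-ratios scaling, 1.08 with the length trend removed, 0.62 to 1.13 when 1 sample was left out). Only 3 of the 28 had a lower mean at 7 dpi (10.7%, against 60.9% of all genes). Under all scalings 4 were separated and higher and none lower (14.3% and 0%, against 6.4% and 11.1% of all genes). No member passed in the 6- or 15-sample fit, and epor passed as higher without 5 dpi replicate 1, where 4.29% of all genes did. The receptor of erythropoietin, epor, was at 20.5, 27.0 and 21.7 FPKM at 7 dpi, against 7.82, 9.05 and 9.48 FPKM at 5 dpi, with 14.5 to 31.2 FPKM in uninjured kidneys; the 7 dpi samples overlapped the uninjured ones and the 5 dpi samples were all below them. It differed by 1.29 ± 0.17 (SE; adjusted p 0.0902 in the 6-sample limma fit and 0.03 without 5 dpi replicate 1). Alpha globin hbaa1 was at 4266, 8123 and 9992 FPKM at 7 dpi, against 3006, 4185 and 1185 FPKM at 5 dpi, and a beta globin gene named ba1 (ENSDARG00000089087) was at 2613, 3397 and 3798 FPKM at 7 dpi, against 1316, 1151 and 600.2 FPKM at 5 dpi. Near-identical globin copies may share reads, so single globin genes are uncertain. alas2, the first enzyme of haem synthesis in red cells, had 119, 254 and 262 FPKM at 7 dpi and 89.0, 148 and 37.0 FPKM at 5 dpi, and the erythroid factors gata1a and klf1 overlapped likewise: gata1a was at 15.8, 30.9 and 32.7 FPKM at 7 dpi and 8.48, 18.3 and 9.16 FPKM at 5 dpi, klf1 at 19.1, 32.8 and 39.2 FPKM at 7 dpi and 11.7, 20.03 and 8.72 FPKM at 5 dpi. In alas2, gata1a, klf1 and hbaa1 alike, 5 dpi replicate 2 was the highest of its group and 7 dpi replicate 1 the lowest of its own. Blood left in the tissue and blood formation within it cannot be told apart in these samples.

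Ribosomal protein genes were higher at 7 dpi on FPKM, though not under every scaling: rps23 turned under quantile normalization (-0.17). Of 11 genes of the ribosome and translation tested, 7 were separated and higher under all 3 scalings and none lower. These shares were 63.6% and 0%, against 6.4% and 11.1% of all genes. The median was 0.51, and quantile normalization brought it to 0.04. None passed in the 6- or 15-sample fit or without 5 dpi replicate 1. rps23 had 1724, 1775 and 1788 FPKM at 7 dpi, against 1245, 1180 and 1219 FPKM at 5 dpi and 833 to 1027 FPKM in uninjured kidneys. rpl36 was at 570.2, 577 and 591 FPKM at 7 dpi, against 380.5, 357 and 400.5 FPKM at 5 dpi. larp1, which in mammals binds messages of ribosomal proteins and holds back their translation, had lower values that passed without 5 dpi replicate 1 (adjusted p 0.024, limma) but not in the 6- or 15-sample fit, at 9.12, 8.26 and 11.5 FPKM at 7 dpi, against 21.1, 25.8 and 29.0 FPKM at 5 dpi and 20.5 to 22.1 FPKM in uninjured kidneys.

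Other genes that fell were f8, aqp4, trpm1a, dbn1, limk1a and itchb, which share no list. f8, coagulation factor VIII, which endothelial cells make in mammals, was at 5.19, 5.52 and 4.12 FPKM at 7 dpi, against 14.2, 21.9 and 22.9 FPKM at 5 dpi, and fell by 1.78 ± 0.23; its 7 dpi samples overlapped the uninjured range of 4.53 to 5.12 FPKM. aqp4, a water channel, fell by 1.84 ± 0.26, with 0.179, 0.126 and 0.119 FPKM at 7 dpi and 4.25, 3.69 and 1.76 FPKM at 5 dpi; 2 of the 3 uninjured samples were at 0. trpm1a, a cation channel, had the smallest adjusted p in the 15-sample limma fit, 0.000167 (0.0593 in the 6-sample fit, 0.00017 to 0.25 over all alternatives), and was 1 of the 4 that passed there with the length trend removed: it was at 0.160, 0.117 and 0.161 FPKM at 7 dpi, against 1.19, 1.44 and 1.37 FPKM at 5 dpi. The cytoskeletal regulators dbn1 (drebrin) and limk1a (LIM kinase) fell by 1.27 ± 0.25 and 1.25 ± 0.23: dbn1 was at 5.92, 6.85 and 7.59 FPKM at 7 dpi, against 14.5, 15.2 and 25.1 FPKM at 5 dpi, and limk1a at 5.29, 7.58 and 6.06 FPKM at 7 dpi, against 12.5, 18.5 and 18.6 FPKM at 5 dpi. itchb, a ubiquitin ligase, fell by 1.13 ± 0.19 to 2.01, 2.87 and 2.60 FPKM at 7 dpi, against 5.64, 7.15 and 7.16 FPKM at 5 dpi; since uninjured kidneys had 6.49 to 7.43 FPKM, it was below both. slc39a10 and stxbp5b fell too. slc39a10, a zinc importer, was at 3.15, 3.25 and 2.86 FPKM at 7 dpi, against 5.20, 7.24 and 7.50 FPKM at 5 dpi, and stxbp5b, which encodes a syntaxin-binding protein, at 4.06, 3.10 and 3.73 FPKM at 7 dpi, against 7.23, 9.34 and 9.43 FPKM at 5 dpi. The 7 dpi samples of both were below their uninjured ranges (3.59 to 4.13 and 5.56 to 6.97 FPKM). trim35-10, of the TRIM family of ubiquitin ligases, fell by 1.46 ± 0.30, with 4.97, 10.3 and 4.84 FPKM at 7 dpi and 16.7, 22.3 and 19.0 FPKM at 5 dpi. The remaining named genes that fell, abcf2a, atxn1l, btbd11b, calcoco1b, disc1, fam117bb, gnsb, kif21b, pappaa, plcl1, pptc7b, slc24a2, stk35 and stx12l, had differences of -1.33 (stk35) to -0.44 (pappaa). Of 20 endothelial genes tested, none rose or fell, and the median was -0.03. Without 5 dpi replicate 1, 1 passed as lower, where 3.68% of all genes did. Under all scalings 2 were separated and higher and 2 lower (10.0% each, against 6.4% and 11.1% of all genes). The 15-sample calls also hold 9 genes with only a clone or contig name.

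Among 54 genes of complement, coagulation and plasma proteins, f8 fell and 17 were separated and higher under all scalings, 5 lower (31.5% and 9.26%, against 6.4% and 11.1% of all genes). Without 5 dpi replicate 1, 5 passed as higher and f8 as lower, against 4.29% and 3.68% of all genes. Several of the higher ones, such as serpina1 and fgg, are on the liver list too. That list had 8 of 20 higher and 1 lower under all scalings (40.0% and 5.0%, against 6.4% and 11.1% of all genes). Without 5 dpi replicate 1, 3 of the liver genes passed as higher, where 4.29% of all genes did. The liver gene apoa2, an apolipoprotein, was at 11.3, 28 and 25.5 FPKM at 7 dpi, against 7.03, 1.14 and 1.03 FPKM at 5 dpi. Transferrin (tfa) ran the other way, with 11.01, 11.3 and 15.6 FPKM at 7 dpi and 39.6, 90.2 and 26.5 FPKM at 5 dpi, as did complement c3a.1, with 4.99, 4.05 and 3.15 FPKM at 7 dpi and 8.03, 20.6 and 7.99 FPKM at 5 dpi.

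The second gene that rose, ckmb, belongs to the muscle list. This creatine kinase was at 15.8, 9.29 and 16 FPKM at 7 dpi, against 2.58, 0.586 and 1.22 FPKM at 5 dpi, with 19.4, 11.5 and 2.98 FPKM in uninjured kidneys (2.62 ± 0.37; adjusted p 0.0902 in the 6-sample limma fit, 0.0499 in the 15-sample fit, 0.0089 to 0.25 over all alternatives). Of the 27 muscle genes 15 were separated and higher under all scalings (55.6%, against 6.4% of all genes). Of the 24 exocrine pancreas genes 17 were (70.8%). None was lower in either list, against 11.1% of all genes. In the fit without 5 dpi replicate 1, 10 muscle and 6 exocrine pancreas genes passed as higher, where 4.29% of all genes did. Parvalbumin pvalb2 was at 5.10, 4.06 and 6.42 FPKM at 7 dpi, against 0.655, 0.103 and 0.444 FPKM at 5 dpi, and the digestive enzyme gene ctrb1 at 6.09, 10.3 and 10.7 FPKM at 7 dpi, against 1.36, 0.624 and 0.335 FPKM at 5 dpi. Of the 15 symbols higher at 7 dpi with the smallest p in the 6-sample fit, 10 were on the muscle or pancreas list; krt1-19d, a keratin outside them, was at 0.997, 1.2 and 0.998 FPKM at 7 dpi and at 0 in all 3 samples at 5 dpi, and no fold is given for it. Whether neighbouring tissue was taken with the kidneys was not tested.

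Gene length moved with the differences. Over 5682 genes with a recovered length, Spearman's rho of length with the difference was -0.27, a description across genes, which are not independent. With the genes cut into 4 equal classes by length, the shortest class (median 1062 bases) had a median difference of 0.05, with 12.1% of genes separated and higher and 10.8% lower. In the longest class (median 5015 bases) it was -0.26, with 2.89% higher and 38.4% lower. The 45 genes that fell were spread over the classes, with 9, 10, 12 and 14 from the shortest to the longest. With the trend removed, 4 genes fell in the 15-sample fit (0.0704%) and none rose (0%): nos2b, trpm1a and the clone-named si:rp71-77l1.1 and si:ch73-92i20.1.

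**Figure D4:**
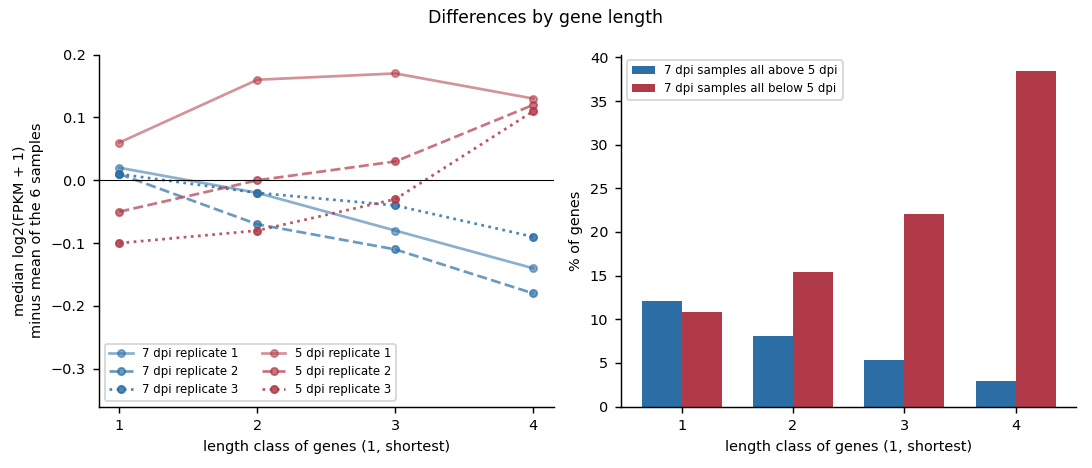
Left, median over the genes of each of 4 length classes of log2(FPKM + 1) minus the mean of the 6 samples, 1 line per sample; right, share of genes in each class whose 3 samples at 7 dpi were all above or all below those at 5 dpi. The 3 samples at 7 dpi declined with length, to -0.14, -0.18 and -0.09 in the longest class, where the 3 at 5 dpi were at 0.13, 0.12 and 0.11.

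Genes that had changed early were followed over the same interval, chosen on samples that take no part in it. At 3 dpi, 364 genes had risen against uninjured kidneys (6.4%) and 393 had fallen (6.91%). The risen genes had a median difference of -0.22 between 7 and 5 dpi, against -0.10 for all genes. Of these, 86 were separated and lower (23.6%, against 21.7% of all) and 11 higher (3.02%, against 7.12%). In the 15-sample fit 2 of the 364 fell, where 0.792% of all genes did. On median-of-ratios scaling the median was -0.07, against 0.01 for all genes. Their median level relative to the uninjured mean was 0.72, 0.70 and 0.62 at 7 dpi, against 0.84, 0.85 and 0.97 at 5 dpi, so the 3 samples at 7 dpi were the lower ones and remained above 0. The same median over all genes tested was lower at 7 dpi as well, at -0.23, -0.25 and -0.19, against 0.02, -0.09 and -0.09 at 5 dpi. At 7 dpi 109 of the 364 (29.9%) had a mean at least 2-fold above the uninjured one, and at 5 dpi 160 (44.0%). Of the 364, 191 had all samples above the uninjured range at both times, while 90 were entirely above it at 5 dpi and overlapped it at 7 dpi. Among all 5685 genes tested these counts were 609 and 560.

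On FPKM the genes fallen at 3 dpi differed little between the times. Their median difference was -0.04, against -0.10 for all genes, and none was called in the 6- or 15-sample fit. It was 0.11 with median-of-ratios scaling and 0.10 with the length trend removed, against 0.01 and 0.03 for all genes. Without 5 dpi replicate 1 it was 0.11, against -0.05 for all genes. Of the 393, 37 were separated and lower and 15 higher (9.41% and 3.82%, against 21.7% and 7.12% of all genes). Their medians relative to uninjured were -1.03, -0.96 and -0.95 at 7 dpi, against -0.64, -0.82 and -1.29 at 5 dpi. The ranges overlapped, with 5 dpi the more spread. At 7 dpi 192 (48.9%) were at least 2-fold below uninjured, and at 5 dpi 170 (43.3%). These counts are on FPKM, on which the median of all genes was also lower at 7 dpi. Of the first-day response, 735 genes had risen at 1 dpi (12.9%) and 392 had fallen (6.9%). Median levels of the risen ones relative to uninjured were 0.03, -0.02 and 0.00 at 7 dpi, against 0.18, 0.14 and 0.17 at 5 dpi. The median of all genes moved as well, to -0.23, -0.25 and -0.19 at 7 dpi from 0.02, -0.09 and -0.09 at 5 dpi. With median-of-ratios scaling the median difference of the risen ones was -0.03, against 0.01 for all genes. Of the 735, 198 were separated and lower and 37 higher (26.9% and 5.03%, against 21.7% and 7.12% of all genes). In the 15-sample fit 3 of the 735 fell, where 0.792% of all genes did. The genes fallen at 1 dpi were at -0.87, -0.78 and -0.79 at 7 dpi, against -0.54, -0.63 and -0.95 at 5 dpi, and overlapped. Because uninjured samples took part in choosing the members, levels relative to them are a description.

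**Figure D5:**
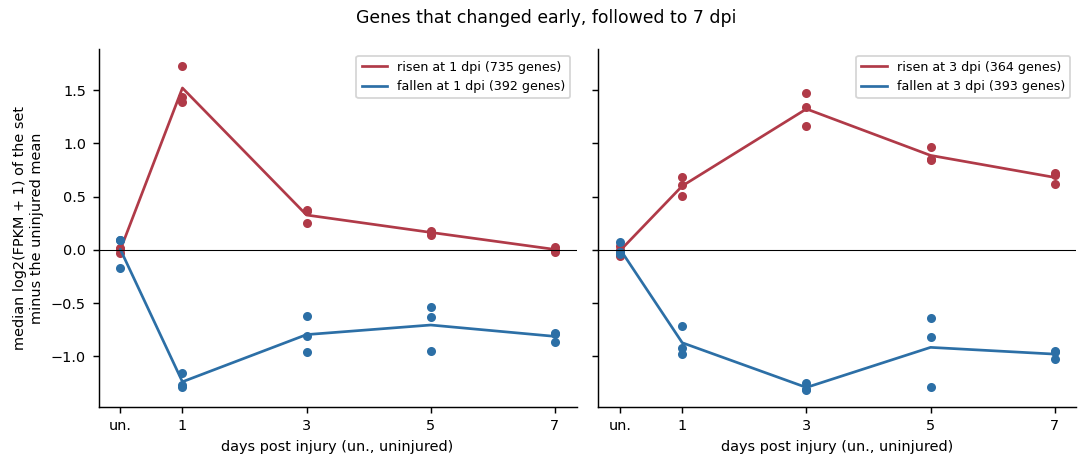
Median level of genes risen or fallen at 1 dpi (left) or 3 dpi (right), as log2(FPKM + 1) minus the uninjured mean, in every sample over the time course; points are samples and lines join the group means. Genes risen at 3 dpi were at 0.62 to 0.72 at 7 dpi and 0.84 to 0.97 at 5 dpi, and those fallen at 3 dpi stayed near -1 at 7 dpi. The median of all genes tested, not drawn, was -0.25 to -0.19 at 7 dpi and -0.09 to 0.02 at 5 dpi.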

How the data were processed

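Whole kidneys of 15 zebrafish samples (5 groups of 3) were sequenced on polyadenylated RNA. The authors cleaned the reads, used StringTie 1.3.3b and featureCounts 1.5.0-p3 with GRCz11, and deposited FPKM per gene (the aligner is not given in the sources used here). The study names 3 biological replicates per group. Same-numbered deviations at 5 and 7 dpi had correlations of 0.064, 0.247 and -0.256. Deviations were taken from group means of 3 samples, so these correlations cannot settle whether replicate numbers pair samples. The main fit did not pair them. FPKM were tested as log2(FPKM + 1) with limma 3.58.1 (R 4.3.3; empirical Bayes with trend, two-sided, Benjamini-Hochberg over 5685 genes above 0 in at least 3 samples, threshold 0.05), on the 6 samples at 7 and 5 dpi. FPKM steps gave whole reads within 0.02 for 99.95% of genes and hence lengths and library sizes of 13875548 to 16367612 reads. The length trend was a lowess curve (span 0.5) per sample. Scripts were tested on simulated data. Named genes were, per direction, 15 by smallest p among separated genes with a symbol, and 5 per list by smallest p. They were joined by genes the study named, the 15-sample calls and further list members, the last 2 chosen after their values were seen. Members and lists were chosen with earlier results of these data known, and 3 replicates limit precision. A result withheld from the text is not reported here; it stayed in the fits and list counts. No sequences are shown.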

Additional observations from a re-analysis of the deposited data

How the results depend on the processing

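Of 177 named genes, 173 kept their direction under every alternative. Apart from the genes the study named, they were chosen by smallest p or by a call on these same samples. Kept directions therefore follow in part from that choice and are no independent support. The difference turned for dcn (0.02) and lef1 (0.03) with median-of-ratios scaling, for rps23 (-0.17) with quantile normalization, for lef1 with the length trend removed (0.08, also in all 15 samples), and when 1 sample was left out for lef1 (-0.23 to 0.16, turned without 5 dpi replicate 1) and lhx1a (-0.50 to 0.01, turned without 5 dpi replicate 3). None of these 4 genes passed in the 6- or 15-sample fit. The 0 genes called in 6 samples became 1 with a pseudocount of 0.1 and 47 with all 15 samples. With the length trend removed, a setting chosen after seeing the data, 0 were called in 6 samples and 4 in all 15. Leaving out 1 sample gave 0 to 453, all above 0 coming from the omission of 5 dpi replicate 1. The cause was not tested. With the replicate number as a block in the 6 samples, 0 genes passed, 239 were higher and 822 lower at an unadjusted p below 0.05, and the adjusted p of the 47 was 0.224, against 0.0593 to 0.109 without the block. With the block in all 15 samples, a setting chosen after seeing the data, 88 genes passed (4 higher, 84 lower), all 47 among them.

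Among early risen genes, members from 3 dpi gave 2 calls and members from 1 dpi 3 calls with all 15 samples (3 and 5 with the block as well), and leaving out 1 sample gave 0 to 13 and 0 to 27. For early fallen genes the ranges were 0 to 5 (3 dpi) and 0 to 2 (1 dpi). The sets hold 364 and 735 risen and 393 and 392 fallen genes from 3 and 1 dpi. Of all 5685 genes, 0.0352% rose and 0.792% fell in the 15-sample fit. Without 5 dpi replicate 1, 4.29% of all genes passed as higher and 3.68% as lower. The median of the 3 dpi risen genes (-0.22) was -0.07 with median-of-ratios scaling. That of the 1 dpi risen genes (-0.17) was -0.03 with median-of-ratios scaling, -0.09 with quantile normalization, -0.27 with voom on recovered reads and -0.06 with the length trend removed, in 6 or 15 samples. The cause of these shifts was not tested. With 3 samples a group and 14226826 to 16367612 reads, small differences were not detectable. Large ones did not pass in the 6-sample limma fit either, such as those of saa (-3.75, adjusted p 0.0934) and alox5b.2 (-3.10, adjusted p 0.0975).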
